A study of Oryza sativa with 4 samples.

Results

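Phosphate is taken up at the root surface by proton-coupled carriers of the PHT1 family, which sit in the plasma membrane, and it is moved toward the shoot by PHO1 proteins, which export it into the xylem. Plants raise or lower several PHT1 carriers with their phosphate supply, some PHT1 carriers serve the exchange with mycorrhizal fungi, and root hairs, the tubular outgrowths of epidermal cells, make up much of the surface over which uptake can occur. The genes described here are 8 phosphate transporter genes of rice out of 29689 genes with a Rice Annotation Project (RAP) identifier on the array. They were chosen by identifier under a rule that uses no values, although earlier results of these data were known. They comprise 7 genes listed as PHT1 family members and Os02g0809800, listed as PHO1;2. RAP identifiers carry the chromosome in the digits after Os, so that Os03g0150600 and Os03g0150800 lie on chromosome 3, Os10g0444600 and Os10g0444700 on chromosome 10, Os04g0186400 on chromosome 4, Os08g0564000 on chromosome 8, Os01g0657100 on chromosome 1 and Os02g0809800 on chromosome 2. The RefSeq gene table (assembly ASM3414082v1) names 12 PHT1 and 3 PHO1 genes of rice but holds none of these 8 identifiers, so the single PHT1 genes are called by their RAP identifiers. All 8 genes had at least 1 probe, and together they had 27 probes with 1 spot each.

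Seminal roots of rice seedlings, 3 days after germination, were frozen and their root hairs brushed off, and the root-hair RNA was hybridised to 4 Agilent arrays in 1 colour (Cy3). Replicates 1, 2 and 3 carry the cultivar label Don-gin and the remaining array the label Lon-gin. The sample titles differ likewise, with DJ for replicates 1, 2 and 3 and LJ for the remaining array. The study's methods describe biological replicates of a single cultivar, Dongjin. The 4 arrays were therefore treated as 1 condition, and the last one is called the Lon-gin-labelled array. Each mean and SD over all 4 arrays thus pools both labels. No treatment or mutant was included, and no other tissue. Slide 1 held replicates 1 and 2, and slide 2 held replicate 3 beside the Lon-gin-labelled array. A level is the log2 processed signal (spot intensity after background correction) after shifting every array to a common 75th percentile. A probe was well above background when the scanner software marked its signal so.

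The slides differed before any member was considered. Before scaling, slide 2 was the brighter, with 75th percentiles of log2 signal at 11.49 and 11.80 against 10.59 and 10.73, and it had more probes detected above background, at 85.4% to 88.6% against 71.5% to 74.1%. CSLD1 (Os10g0578200), a cellulose synthase-like gene of root hairs, was well above background on all 4 arrays at 14.40 ± 0.37 (SD, n = 4). The study judged its samples highly enriched in root hairs under the microscope, and also ran RT-PCR. There OsBOR1, a gene of the stele, endodermis and exodermis, was high in roots and weak in root hairs. OsEXPA17, a root-hair marker, was strong in root hairs and weak in roots. Neither gene could be tied to a probe from the sources used here. The part of RNA from other root cells in the levels below was therefore not tested. In RNA of whole brushed tissue, fewer cells of a type and less RNA per cell cannot be told apart.

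On all 4 arrays, 7 of the 8 transporter genes were detected by at least 1 probe (well above background), beside 67.9% of all genes. The gene not detected was Os01g0657100. The members had 27 probes for 8 genes, against 41889 probes for 29689 genes, and so had more probes per gene that could pass. When every probe of a gene had to pass, 5 members did. Counted by probe, 20 of the 27 member probes were well above background on all arrays, beside 29690 of 42477 probes in all. Among the 7 detected genes, with all probes of a gene averaged, the arrays disagreed most for Os10g0444700, Os02g0809800 and Os03g0150600. The highest and lowest array of these genes were 4.01-fold to 6.90-fold apart. Os04g0186400 was at 3.61-fold, but its average includes the probe AF416722, which was not well above background on replicate 2. Its detected probes taken singly ran from 1.78-fold to 11.3-fold, so its place in this ranking depends on the averaging. The arrays disagreed least for Os03g0150800, at 1.64-fold. Over the 20 detected member probes the SD across arrays ran from 0.27 to 1.57 with a median of 0.56, and the median over all 29690 probes detected in this way was 0.38. In 7 of the 20 member probes the arrays were over 4-fold apart, beside 11.8% of all such probes. The software's own reading error of these member spots was 0.14 to 0.19 on the log2 scale, which covers the reading of a spot and not the spread between samples. The plot of levels by array shows these patterns for each probe.

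**Figure D1:**
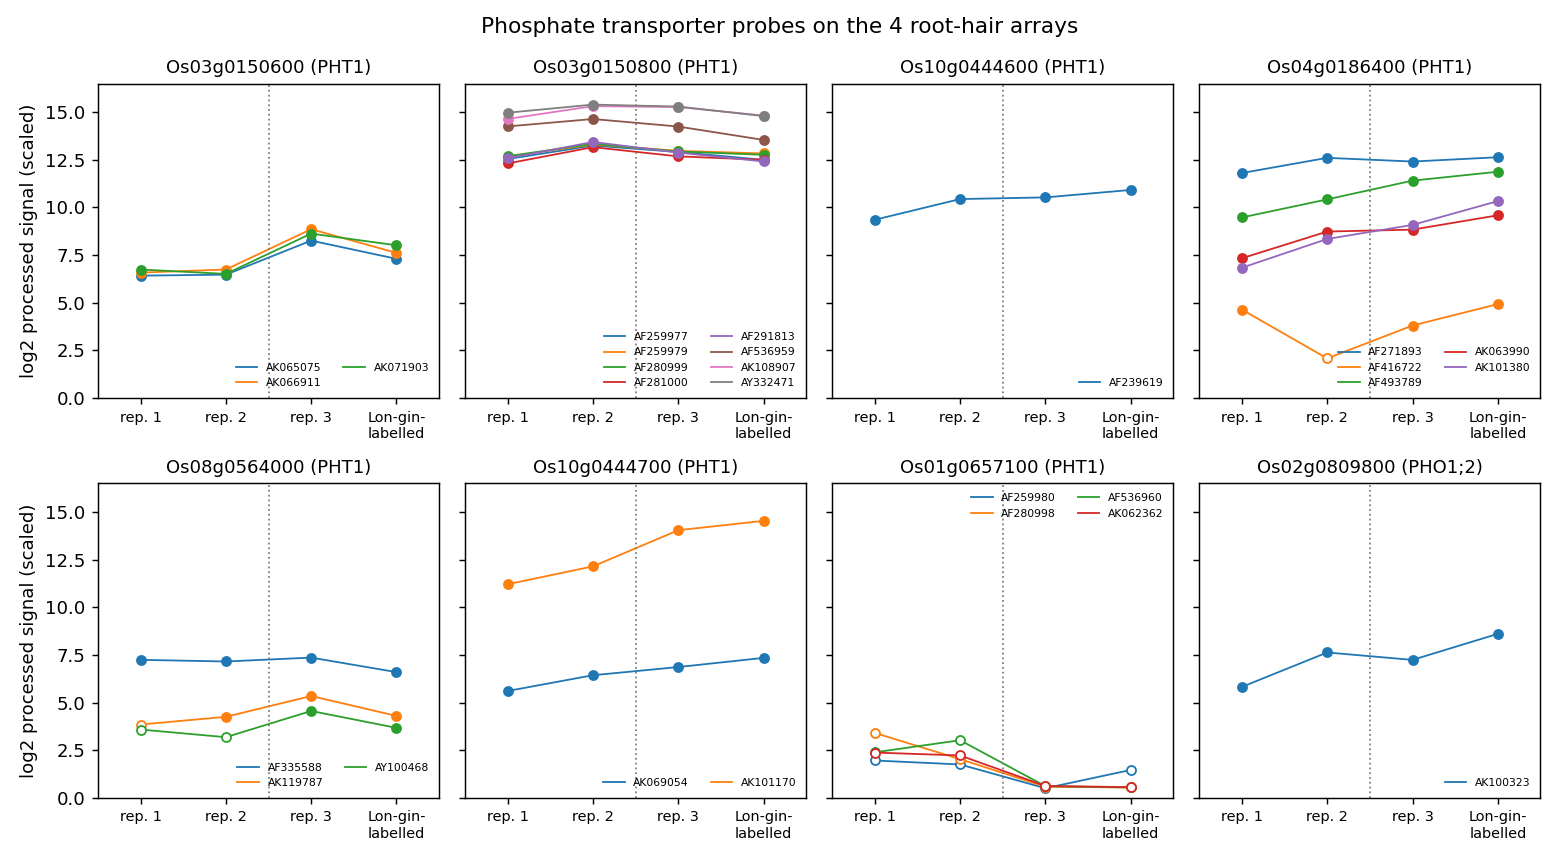
Scaled log2 processed signal (vertical axis) of the 27 member probes on the 4 arrays (horizontal axis), with 1 panel per gene and 1 colour per probe. Lines only join the values of 1 probe, filled points are well above background, open points are not, and the dotted line separates slide 1 (left) from slide 2 (right). Os03g0150800 varies little between arrays in all 8 probes, Os03g0150600 and Os10g0444700 lie higher on slide 2, and all points of Os01g0657100 are open.

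Os03g0150800 was read by 8 probes, of which 6 lie in the coding sequence and 2 reach from it into the 3' untranslated region. Averaged over the probes, its level on replicates 1, 2 and 3 was 13.33, 13.98 and 13.65, and the Lon-gin-labelled array gave 13.27, or 13.56 ± 0.33 (SD, n = 4). The probe AY332471 read 14.97, 15.40, 15.30 and 14.80 in the same order, and AF259977 read 12.54, 13.25, 12.91 and 12.50. In all 8 probes replicate 2 was the highest array, and the SD ran from 0.27 to 0.46. The slides overlapped in all of these probes except AF536959, and the slide difference of the 8 probes (slide 2 minus slide 1) ran from -0.55 to 0.06, with limma adjusted p between 0.435 and 0.93. With the probes of a gene averaged, its SD was the lowest of the 7 detected members.

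Os03g0150600, the other member on chromosome 3, moved differently. Its 3 probes, which all reach from the coding sequence into the 3' untranslated region of transcript 01, averaged 6.58 on both arrays of slide 1 and 8.58 and 7.65 on replicate 3 and the other array of slide 2, giving 7.35 ± 0.96 (SD, n = 4). The probe AK071903 read 6.74, 6.52, 8.63 and 8.02. AK066911 read 6.58, 6.75, 8.86 and 7.62, and AK065075 read 6.42, 6.48, 8.26 and 7.30. In all 3 probes slide 2 thus lay wholly above slide 1, and replicate 3 was the highest in each. Replicate 2 minus replicate 1 was 0.05, 0.16 and -0.23 in AK065075, AK066911 and AK071903, whereas the Lon-gin-labelled array minus replicate 3 was -0.96, -1.24 and -0.61. The slide difference was 1.33, 1.58 and 1.69 for the same probes, with SE of 0.40, 0.48 and 0.33, and limma adjusted p of 0.18, 0.18 and 0.083, so that none passed 0.05. When 1 array was left out, none of the 3 passed without replicate 1 (adjusted p of 0.52, 0.54 and 0.34), replicate 2 (0.35, 0.35 and 0.26) or replicate 3 (0.29, 0.24 and 0.085). All 3 passed without the Lon-gin-labelled array, with differences between 1.81 and 2.20 and adjusted p of 0.041, 0.019 and 0.029. That fit leaves slide 2 with 1 array, which is taken to vary like the arrays of slide 1.

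Os10g0444700 showed the largest slide difference of the members. Its probe AK101170, on transcript 01, read 11.21 and 12.15 on replicates 1 and 2, and 14.04 and 14.53 on replicate 3 and the Lon-gin-labelled one. This gives 12.98 ± 1.57 (SD, n = 4), with the lowest and the highest array 3.33 apart on the log2 scale. The second probe, AK069054, on transcript 02, read 5.60, 6.43, 6.86 and 7.34. Both probes ordered the arrays alike, and in both slide 2 lay wholly above slide 1. The slide difference was 2.61 (SE 0.43, 6.11-fold, limma adjusted p = 0.060) for AK101170 and 1.08 (SE 0.40, adjusted p = 0.24) for AK069054, so the 2 probes of the gene disagreed in its size. For AK101170 the adjusted p was 0.0068 without replicate 3 and 0.026 without the Lon-gin-labelled array. In both of these fits slide 2 is 1 array and the spread comes from slide 1 alone. It was 0.28 without replicate 1 and 0.19 without replicate 2.

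Os10g0444600, which lies beside Os10g0444700 in the RAP numbering, had 1 coding-sequence probe. It read 9.35, 10.44 and 10.53 on replicates 1, 2 and 3 and 10.92 on the Lon-gin-labelled array, or 10.31 ± 0.67 (SD, n = 4). Replicate 1 was the lowest array. The slide difference was 0.83 (SE 0.46) with a limma adjusted p of 0.37.

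Os04g0186400 was read by 5 probes that did not give 1 picture. AF271893, in the coding sequence, read 11.81, 12.61, 12.41 and 12.64 on replicates 1, 2 and 3 and the Lon-gin-labelled array, an SD of 0.38. AK101380, which reaches the 3' untranslated region of the same transcript 01, read 6.84, 8.35, 9.09 and 10.34, an SD of 1.46 and an 11.3-fold distance between arrays. AF493789 read 9.48, 10.43, 11.41 and 11.88, and AK063990, on transcript 02, read 7.33, 8.74, 8.84 and 9.59. The fifth probe, AF416722, carries the name of another transcript assembly, was not well above background on replicate 2, and read 2.08 to 4.93. In all 5 probes the Lon-gin-labelled array was the highest, and in 4 of them replicate 1 was the lowest. The slide difference ran from 0.32 for AF271893 to 2.12 (SE 0.70) for AK101380, with limma adjusted p between 0.13 and 0.65. The probes thus shared their highest array but not the size of the difference, and probe sequences, which could show whether a probe also binds other PHT1 transcripts, were not used here.

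Os08g0564000 was near the limit of detection in 2 of its 3 probes. AF335588 was well above background on every array and read 7.24, 7.15, 7.36 and 6.59, or 7.09 ± 0.34 (SD, n = 4). On the 3 Don-gin arrays alone its SD was 0.10, and the Lon-gin-labelled array minus their mean was -0.66 (limma adjusted p = 0.82). AK119787 read 3.85, 4.25, 5.34 and 4.30, and was not well above background on replicate 1. AY100468 read 3.58, 3.18, 4.56 and 3.67, and was not well above background on either array of slide 1. Replicate 3 was the highest array in all 3 probes.

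Os02g0809800, the PHO1;2 gene, codes for a phosphate exporter that in rice is known to act in root-to-shoot transfer. Its 1 probe, which reaches the 3' untranslated region, read 5.82, 7.63 and 7.24 on replicates 1, 2 and 3 and 8.60 on the Lon-gin-labelled array, or 7.32 ± 1.16 (SD, n = 4). The slides overlapped, since replicate 2 lay above replicate 3. The distances within a slide were the largest among detected member probes, at 1.81 on slide 1 and 1.37 on slide 2. The SD of these within-slide differences over all 29690 detected probes was 0.61 and 0.82. The slide difference was 1.20 (SE 0.79) with a limma adjusted p of 0.44.

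Os01g0657100 had 4 probes, and none was well above background on any array. Their scaled levels lay between 0.50 and 3.40, with reading errors of 0.66 to 1.44 on the log2 scale, and are bounds rather than levels. The median spot signal of the 4 probes before background correction was 48 to 59 on replicate 1, where the 153 negative control spots ran from 43 to 113. Replicate 2 gave 50.5 to 58 (negative controls 45 to 76), replicate 3 gave 28 to 33 (24 to 43), and the Lon-gin-labelled array gave 29 to 37 (26 to 62.5). Every probe of the gene therefore lay inside the range of the negative controls on every array. The software's other call, positive and significant, was given to AF259980 and AF536960 on 2 arrays each and to AF280998 on 1. Its RNA was thus not told apart from the negative controls by signal, and no fold change is given for it.

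The slide comparison over all members asked whether the spread among these replicates follows the slide. Because the Lon-gin-labelled array is on slide 2, slide and label are partly mixed in it. Of the 23 member probes tested, 0 passed a limma adjusted p of 0.05 and 7 had an unadjusted p under 0.05. Over all 35927 probes tested, 3.15% passed and 20.7% had an unadjusted p under 0.05. The 7 probes belonged to Os03g0150600 (3), Os10g0444700 (2) and Os04g0186400 (2), and all were higher on slide 2. Of the tested member probes, 3 entered only through slide 2, and the shares of all probes given above also include probes that entered through 1 slide only. The counts that follow are therefore over the 20 member probes and the 29690 probes in all that were well above background on every array. Slide 2 lay wholly above slide 1 in 9 of the 20, beside 24.4% of all such probes. These were 3 probes each of Os03g0150600 and Os04g0186400, both probes of Os10g0444700 and the probe of Os10g0444600. It lay wholly below in 1, AF536959 of Os03g0150800, beside 29.4%. There the slides were apart by less than the reading error of 0.144, as replicate 3 read 14.248 and replicate 1 14.255. The same holds among the probes above for Os10g0444600 (replicate 3 at 10.53, replicate 2 at 10.44) and AK063990 of Os04g0186400 (8.84 and 8.74). With no scaling every slide difference rose by the same amount, and the median of all probes tested was 1.08. The slide difference of AF536959 became 0.43 there, so its direction rests on the scaling. The differences of Os03g0150600 and Os10g0444700 were already positive and could not reverse under that setting. The median slide difference was 0.57 over the 20 member probes and -0.04 over all such probes, of which 10% exceeded 1.13. Slide 2 also had the brighter signal and the larger share of detected probes, and its part in these differences was not tested. The test has 2 residual degrees of freedom, and several probes of 1 gene are not independent.

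**Figure D2:**
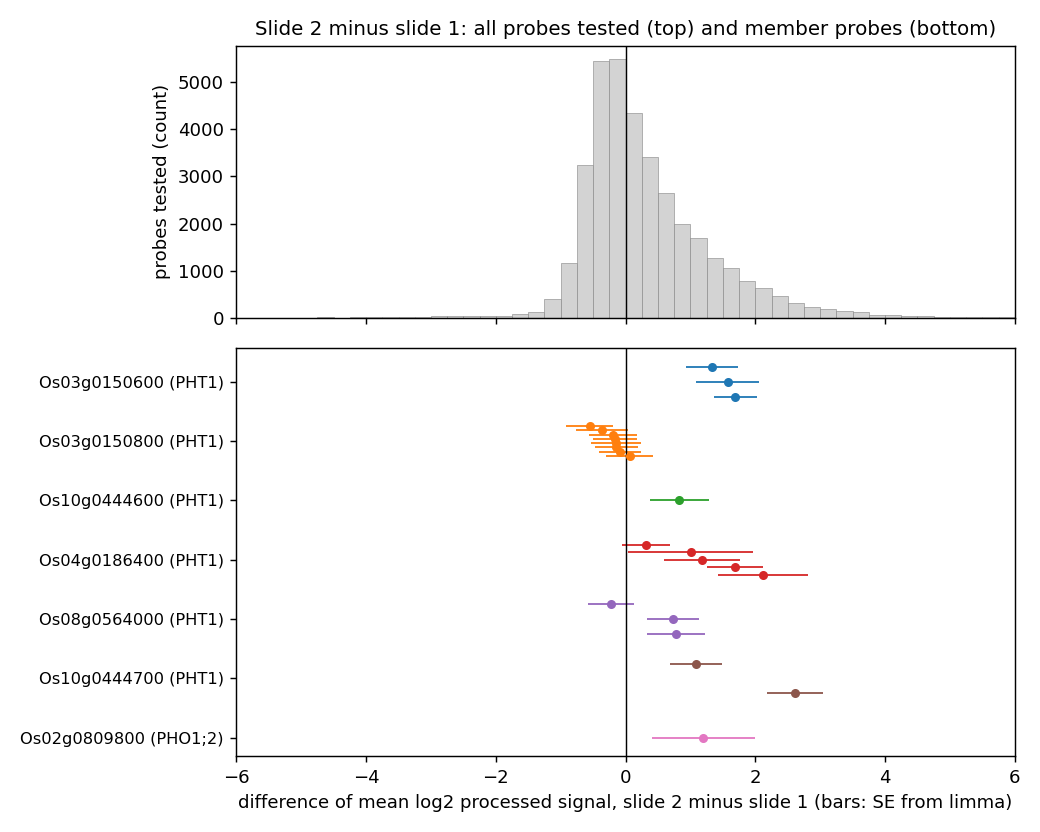
Slide 2 minus slide 1 in mean scaled log2 processed signal (horizontal axis). The upper panel counts all 35927 probes tested (83 lie outside the axis), and the lower panel shows the 23 member probes tested, by gene, with bars for the limma SE. The probes of Os03g0150800 lie around 0 (-0.55 to 0.06), whereas those of Os03g0150600 and Os10g0444700 lie between 1.08 and 2.61.

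The Lon-gin-labelled array was then set against the 3 Don-gin arrays, to see whether the members differ with the label. Here too 0 of 23 member probes passed a limma adjusted p of 0.05, and 0 had an unadjusted p under 0.05. Over all 37697 probes tested, 1 passed (0.00265%) and 8.43% had an unadjusted p under 0.05. With the slide as a block, which sets the Lon-gin-labelled array against replicate 3 and has 1 residual degree of freedom, 1933 of these probes passed (5.13%) and 0 of the 23 member probes did, with 1 member at an unadjusted p under 0.05. Both fits take the spread of the Lon-gin-labelled array to be that of the rest. Their tested sets also hold probes that entered only through detection on the Lon-gin-labelled array. The 3 member probes that entered the slide test only through slide 2 are among them. The Lon-gin-labelled array was the highest of the 4 in 8 of the 20 member probes detected on every array, beside 25.4% of all such probes, and the lowest in 5, beside 26.8%. The largest differences were 2.24 for AK101380 of Os04g0186400 (SE 0.94, adjusted p = 0.63), 2.07 for AK101170 of Os10g0444700 (SE 1.14, adjusted p = 0.78) and 1.71 for Os02g0809800 (SE 0.81, adjusted p = 0.70). Within slide 2 alone, the Lon-gin-labelled array exceeded replicate 3 by 1.25, 0.49 and 1.37 in these 3 probes, and with the slide as a block their adjusted p was 0.60, 1.0 and 0.60. This comparison and the slide comparison share all 4 arrays, and without replicate 3 they become the same contrast, in which AK101170, AK101380 and AF493789 passed (adjusted p of 0.0068, 0.019 and 0.042). In that contrast label and slide cannot be told apart.

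**Figure D3:**
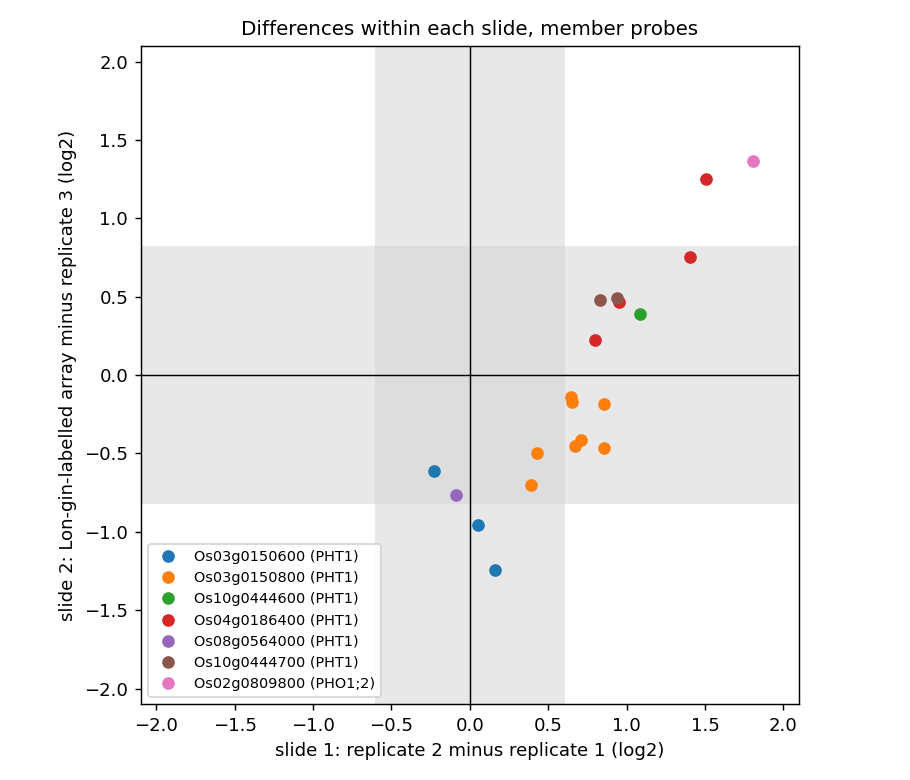
Differences between arrays of the same slide for the 20 member probes detected on every array. The horizontal axis is replicate 2 minus replicate 1 and the vertical axis the Lon-gin-labelled array minus replicate 3, both in log2 units, and grey bands mark 1 SD (0.61 and 0.82) of the same difference over all 29690 such probes. Os02g0809800 lies farthest out at 1.81 and 1.37, and Os03g0150600 lies near 0 on slide 1 but at -0.61 to -1.24 on slide 2.

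The differences within a slide separated the members in another way. On slide 1, replicate 2 exceeded replicate 1 in Os03g0150800 by 0.39 to 0.86 over its 8 probes, in the 4 detected probes of Os04g0186400 by 0.80 to 1.51, in Os10g0444700 by 0.83 and 0.94, and in Os10g0444600 by 1.09. On slide 2 the Lon-gin-labelled array exceeded replicate 3 in Os04g0186400 by 0.23 to 1.25, in Os10g0444700 by 0.48 and 0.49 and in Os10g0444600 by 0.39. It lay below replicate 3 in all 8 probes of Os03g0150800, with differences of -0.14 to -0.70, and in all probes of Os03g0150600 and Os08g0564000. A pair of arrays carries no test of its own, so these are descriptions.

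For each detected gene, the probes of other genes whose centred values over the 4 arrays came closest were listed, with the root mean square distance on the log2 scale as the measure. The nearest were Os07g0546200 and Os03g0807000 for Os03g0150800 (0.027 and 0.035), Os01g0823000 and Os03g0750500 for Os03g0150600 (0.040 and 0.047), and Os05g0540900 and Os03g0828300 for Os10g0444700 (0.061 and 0.0635). For Os10g0444600 they were Os07g0609000 and Os02g0655300 (0.027 and 0.039), for Os04g0186400 Os02g0829800 and Os01g0607200 (0.036 and 0.043), for Os08g0564000 Os05g0159300 and Os08g0114100 (0.037 and 0.038), and for Os02g0809800 Os04g0405900 and Os01g0178300 (0.0525 and 0.058). None of the nearest genes was another phosphate transporter of the list. With only 4 arrays such closeness is common, as 91 of 29566 probes compared lay within 0.1 of Os03g0150800 and 28 of 29571 within 0.1 of Os03g0150600. For Os02g0809800 there were 5 of 29573.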

How the data were processed

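Spot intensity values of root-hair RNA on 4 arrays were used as deposited. Per the file headers they were made with Agilent Feature Extraction 11.5.1.1 (the submitters' processing notes name 9.1), with the signal corrected for background. The authors also deposited a log2 table, which orders the spots of an array as their median signal does. How its arrays were normalized was not tested, and its median slide difference over all probes tested was 0.48. The log2 table served as an alternative, and 0 columns of per-sample values were left unused. Control spots were left out, which left 43734 spots of 42477 probes. Outlier spots were dropped where a probe had another spot (126 values), and 0 spots were saturated. Log2 processed signal was averaged per probe and shifted so that the 75th percentile of each array equalled the mean of the 4 percentiles, 11.15. A gene was the mean of its probes, and was well above background if any of its probes was.

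Comparisons used limma 3.58.1 in R 4.3.3 with Benjamini-Hochberg adjustment over all probes tested and 2 residual degrees of freedom, after testing on simulated data. Only probes well above background on every array of at least 1 side were tested. Alternatives were other scalings, normexp with an offset of 50 on the median signal (mean signal columns were not used here), the deposited log2 table, no filter, the slide as a block and each array left out. Python scripts ran with pandas 2.3.3, numpy 2.4.6 and, for figures, matplotlib 3.10.9. The number of arrays limits the precision. A p-value sets a difference against the spread between these arrays, which limma moderates over all probes tested. The members and lists were chosen with earlier results of these data known. The text names all 8 members and, for each detected one, the 2 nearest probes of other genes. Further PHT1 and PHO1 identifiers and cell type markers drawn up for this work were dropped, other than CSLD1, because no source at hand ties their names to a probe. Sequences of genes and probes were not used here.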

Additional observations from a re-analysis of the deposited data

Results flagged for a closer look

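In Os08g0564000, averaged over its 3 probes, replicate 3 stood apart from the other arrays at 5.75, while these lay at 4.85, 4.86 and 4.89. The gap to the nearest of them was 0.96 of the whole range, above Dixon's 95% critical value for 4 samples. It was 1 of 33 probes and gene means examined, and chance flags about 1 in 20. The gap rests on the 2 dim probes, AK119787 and AY100468, which were not well above background on 1 and 2 of the arrays. The brighter probe, AF335588, read 7.36 on replicate 3 and 7.15 to 7.24 on replicates 1 and 2. The Lon-gin-labelled array read 6.59 there and lay farthest from the rest.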

How the results depend on the processing

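The count of 7 genes well above background held with the scanner's positive and significant call and without each array (7 to 7), and was 5 when every probe of a gene had to pass. Gene levels moved by more than their SD in 4 of the 8 genes with normexp and in 2 with the deposited log2 values. With the brightest probe, 4 of the 6 genes with over 1 probe moved. Quantile normalization could have moved a level and did not. The other alternatives could not: other shifts of whole arrays and kept outlier spots leave these means unchanged. Leaving out 1 of 4 arrays cannot move a mean by its SD. For slide 2 against slide 1, where 1130 of all probes passed, 3132 did with no filter on dim probes, 9563 with no scaling (where the median difference of all probes was 1.08), 178 with quantile normalization, 128 with normexp and 3140 with the deposited log2 values (median 0.48). Leaving out 1 array gave 0 to 4642. Member probes that passed numbered 0 and became 3 with no filter (AK101170 and 2 probes of Os01g0657100 that lie below background), 8 with no scaling and 3 with the deposited log2 values, and 0 to 4 when 1 array was left out. They became 3 without replicate 3 and 4 without the Lon-gin-labelled array. For the Lon-gin-labelled array, 1 probe passed over the whole array, and 0 did with no filter, with no scaling, with the 75th percentile over detected probes and with the deposited log2 values, 64 with quantile normalization (31 higher), 4 with normexp (3 higher), and 1933 with the slide as a block (1650 higher). Leaving out 1 array gave 0 to 4642, and 0 to 3 member probes. In probes detected on all 4 arrays, member differences above 1 on the log2 scale kept their direction under every alternative run, in both comparisons. Some of these alternatives could not have reversed them. No scaling raises every difference by the same amount, and no filter and kept outlier spots leave the differences of these probes as they were. In AK101170 the slide difference ran from 2.14 to 3.60. The remaining differences include those of AF416722 (1.01 for the slide, -0.27 without replicate 2). Of their 341 alternative runs, 68 changed sign, 2 passed the test and 0 did both. The 2 that passed were AK119787 and AY100468 of Os08g0564000 in the slide comparison with no scaling. No direction is read from these differences as a set. The causes were not tested.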
